A study of Mus musculus with 6 samples.

Results

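The expression of 9 genes was measured in bone marrow cells labelled GFP+ from mice that received MLL-AF9 leukemia cells and then PBS or pIpC. These genes regulate or mark hematopoietic stem cells, or lie among the known targets of MLL fusion proteins. The genes were Cd34, Cd93, Procr, Slamf1, Mecom, Hlf, Zfp521, Eya1 and Msi2. They were taken by name from the 55487 genes of the deposited table, leaving out the HOX and MEIS families. The rule uses no measured value, but the genes were chosen with earlier results of these data known. RNA-seq of GFP+ bone marrow cells from femora and tibiae gave 3 libraries labelled PBS and 3 labelled pIpC. Both groups came from C57BL/6 animals, with CD45.2(+) donor leukemia cells that carried Mx1-Cre, Brd9fl/fl and MA9, the MLL-AF9 fusion, and with recipients that were CD45.1(+) and CD45.2(-). Each recipient received 1000 leukemia cells after 2 irradiations of 450 cGy. From the day after transplant, 3 injections of PBS or of 20 mg/kg pIpC followed on alternate days, and cells were collected 10 days after injection.

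pIpC mimics double-stranded RNA and raises interferon, and interferon switches on Cre from the Mx1 promoter, which then removes the floxed part of Brd9. The PBS group carried the same Cre and floxed alleles, and no group without Cre or without floxed alleles received pIpC, so deletion of Brd9 and the response to pIpC itself cannot be told apart. GFP marks cells that carry the transduced fusion. The labels do not tie libraries to separate animals, and p-values therefore measure only the spread between these libraries. In bulk RNA, fewer cells of a type and less RNA per cell cannot be told apart.

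Blood stem cells keep themselves undifferentiated through a small set of transcription factors, and they are isolated by surface proteins that mature cells lack. MLL fusion proteins hold part of this program active in myeloid progenitors by keeping chromatin open at their target genes. Several of these genes are also used outside the stem cell, in endothelium, megakaryocytes, mast cells and lymphocytes.

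In the libraries labelled pIpC, 5 of the 9 genes rose (Mecom, Hlf, Zfp521, Slamf1 and Msi2), 2 fell (Eya1 and Cd34), Cd93 did not pass the test, and Procr was too low to be tested. Hlf, a transcription factor of the PAR bZIP family, was 19.8-fold higher, and Eya1, a partner of sine oculis homeobox factors, was at 4.97% of its PBS level. Calls were made at an adjusted p under 0.1, by limma with Benjamini-Hochberg adjustment over the 15020 genes whose normalized count averaged 10 or more across the 6 libraries. Of all genes tested, 45.3% passed in either direction, 25.0% being higher and 20.4% lower in pIpC. Mecom, Slamf1 and Zfp521 reached the filter only through their pIpC values, so they had to differ once tested, and the count of 5 that rose is a description. The 2 groups did not overlap for 8 of the 9 genes, Cd93 being the exception, where 56.8% of all genes tested did not overlap. The plot of values by library shows all 9 genes.

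**Figure D1:**
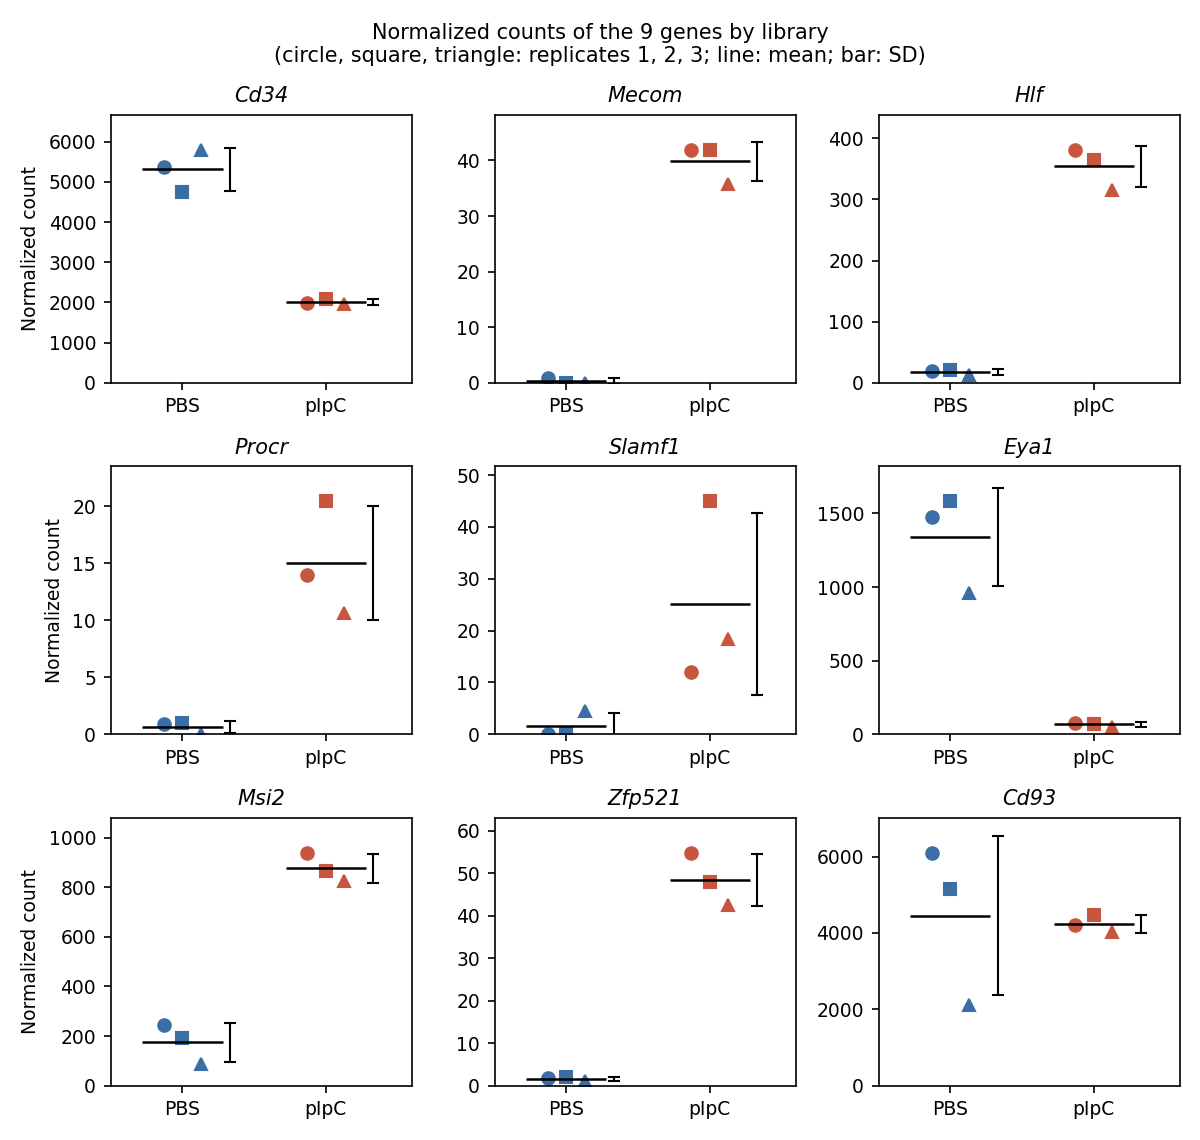
Normalized counts of the 9 genes (y axis, linear scale from 0, 1 panel per gene) in the 3 PBS and the 3 pIpC libraries. Circles, squares and triangles are replicates 1, 2 and 3, lines are group means and bars beside them the SD. Cd93 is the gene whose groups overlap, since PBS replicate 3 lay at 2104 below all pIpC libraries and the other PBS libraries lay above them.

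The libraries held between 19277439 and 22378154 reads on genes in PBS and between 22348517 and 23586722 in pIpC. Brd9, the targeted gene, had normalized counts of 1927, 1946 and 1632 in PBS and 2036, 2263 and 2011 in pIpC, a log2 difference of 0.20 (SE 0.13, adjusted p = 0.259 by limma), so its count over the whole gene was not lower in the libraries labelled pIpC. Its counts in all pIpC libraries lay above those in all PBS libraries, as for 30.5% of all genes tested. An exact 2-sided permutation test of Brd9 gave p = 0.1, the smallest that 3 libraries against 3 allow. The study reports lower Brd9 mRNA in whole bone marrow after excision. It also reports inefficient depletion in GFP+ marrow cells of mice that died early. The deleted exons were not counted apart here, so deletion in these libraries was not tested. The groups also differed in Ly6g, a surface marker of mature neutrophils (19.4 ± 14.6 in PBS and 4315 ± 234 in pIpC, SD, n = 3), in Adgre1, which encodes the macrophage protein F4/80 (4307 ± 138 and 310 ± 44.5), and in Xist, the RNA of the inactive X chromosome (46.6 ± 28.8 and 21515 ± 4104). A difference in the sex or the origin of the cells would be confounded with the treatment as well, and was not tested. PBS replicate 3 stood apart from the other PBS libraries: the chi-square statistic per gene was 216 against replicate 1 and 191 against replicate 2, where replicates 1 and 2 gave 6.83. Values that rest on this library are given without it as well.

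The promoters below are shown for the surface marker that fell and for the transcription factor and the RNA-binding protein that rose with the most reads, beside the gene with the fewest reads in PBS. They come from RefSeq on GRCm38.p6, cover up to 250 bases before the annotated start, read 5′ to 3′ on the gene's own strand, and leave out bases inside annotated exons. Capitals mark matches to a short motif. Of the 9 genes, 6 had an entry (Cd34, Mecom, Hlf, Procr, Slamf1 and Msi2).
Cd34 (chr1:194938571-194938818, plus strand): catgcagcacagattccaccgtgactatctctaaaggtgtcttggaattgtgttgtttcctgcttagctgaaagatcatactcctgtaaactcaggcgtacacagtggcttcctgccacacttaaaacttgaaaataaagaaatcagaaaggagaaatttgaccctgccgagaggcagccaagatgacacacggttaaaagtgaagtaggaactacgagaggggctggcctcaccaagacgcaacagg
Hlf (chr11:90390918-90391167, minus strand): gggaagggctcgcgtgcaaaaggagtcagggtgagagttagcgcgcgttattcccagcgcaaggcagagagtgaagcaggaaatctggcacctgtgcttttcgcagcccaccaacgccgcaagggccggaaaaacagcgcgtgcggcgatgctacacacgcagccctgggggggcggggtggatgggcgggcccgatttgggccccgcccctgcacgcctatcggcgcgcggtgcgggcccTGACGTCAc
Msi2 (chr11:88718278-88718451, minus strand): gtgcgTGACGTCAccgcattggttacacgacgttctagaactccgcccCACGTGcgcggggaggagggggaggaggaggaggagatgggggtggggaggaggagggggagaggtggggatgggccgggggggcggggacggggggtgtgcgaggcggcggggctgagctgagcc
Mecom (chr3:30509823-30510009, minus strand): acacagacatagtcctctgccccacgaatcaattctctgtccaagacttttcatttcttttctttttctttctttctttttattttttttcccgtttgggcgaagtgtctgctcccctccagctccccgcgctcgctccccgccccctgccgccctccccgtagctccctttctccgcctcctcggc
The motifs, chosen after these sequences had been seen, were the cAMP response element TGACGTCA, the E-box CACGTG, the GATA motifs AGATAA and TGATAA, and the HOX-MEIS motif TGATTNAT, searched on both strands. The cAMP response element and the E-box read the same on both strands. Msi2 had 3 windows and Mecom 2, and the first of each is shown. The Hlf window held TGACGTCA 9 bases before the start, and the Msi2 window held TGACGTCA 169 bases and CACGTG 126 bases before the start. The third Msi2 window, with another start, held a further CACGTG 43 bases before it. Among 32851 such windows of the genome, 1.55% held TGACGTCA and 6.02% held CACGTG, while 9.99% held AGATAA, 7.94% held TGATAA and 2.82% held TGATTNAT. The Cd34 window held none of these letters, and a TGATAA lay 31 bases before the Mecom start, within annotated exon and so not printed. That Mecom start lies inside the annotated gene, which on the minus strand begins at 30548008. The Slamf1 window, not printed, held TGATAA 130 bases before its start. Across its 250 bases before the start, the Hlf window had 26 CpG and the Msi2 window 29, against a median of 6 over all windows, and the Cd34 window had 6. The first Mecom window had 14 and the Procr window 13. The window of Slamf1, which also rose, had 3, so the genes that rose did not share a high number. A match describes the letters alone, and binding was not measured.

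Of the surface proteins, Cd34 encodes the sialomucin by which blood progenitors and endothelium are commonly recognised. It is ENSMUSG00000016494 on chromosome 1, from 194938819 to 194961279 of GRCm38. Its normalized counts were 5373, 4756 and 5799 in PBS and 1976, 2099 and 1950 in pIpC. All pIpC libraries lay below all PBS libraries, and PBS replicate 3 was the highest of its group. The level fell from 5309 ± 524 to 2008 ± 79.1 (SD, n = 3), to 37.8% of PBS, a log2 change of -1.40 (SE 0.12, 95% interval -1.69 to -1.11, adjusted p = 0.000227 by limma). Exons of Gm16897 on the other strand overlap Cd34 over 148 bases. The labels describe unstranded libraries, in which reads of the pair cannot be told apart there, and Gm16897 itself did not exceed 141.9 normalized counts in any library.

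The other sialomucins of the CD34 family moved in opposite directions. Podxl, which encodes podocalyxin, rose from 5.50 ± 1.3 to 17.2 ± 3.84 (log2 change 1.48, adjusted p = 0.0191 by limma), but did not pass under quantile normalization (0.55, adjusted p = 0.303). Podxl2, which encodes endoglycan, fell from 97.9 ± 19.0 to 1.96 ± 1.65 normalized counts (log2 change -5.18 (SE 0.45), adjusted p = 0.000224). Podxl2 was thus the partner with the largest fall among the 34 family and pathway partners examined. Podxl reached the filter only through pIpC and Podxl2 only through PBS, so Podxl had to be higher and Podxl2 lower once tested.

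Cd93 encodes a C-type lectin-like receptor of early progenitors, monocytes and endothelium. It is ENSMUSG00000027435 on chromosome 2, from 148436640 to 148443563. Its normalized counts were 6103, 5145 and 2104 in PBS and 4218, 4480 and 4012 in pIpC. The pIpC libraries lay between PBS replicate 3, which was lowest, and the other PBS libraries. The means were 4451 ± 2088 and 4237 ± 235 (SD, n = 3), while the difference on the log2 scale had the other sign, at 0.07 (SE 0.38, 95% interval -0.84 to 0.98, adjusted p = 0.905 by limma). Without PBS replicate 3 the same fit called Cd93 lower in pIpC, with a log2 change of -0.40 (SE 0.086, adjusted p = 0.0034). The call on Cd93 was thus decided by 1 library.

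Thbd, the relative of Cd93 that encodes thrombomodulin, fell from 1260 ± 283 to 268 ± 14.9 (log2 change -2.20, adjusted p = 0.00024 by limma). The other relatives, Clec14a and Cd248, stayed under the filter. Clec14a had at most 2.02 normalized counts in a PBS library and between 10.6 and 12.3 in the pIpC libraries.

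Procr encodes the endothelial protein C receptor, a marker of the most primitive stem cells and of endothelium. It is ENSMUSG00000027611 on chromosome 2, from 155751117 to 155755471. Procr had normalized counts of 0.865, 1.01 and 0 in PBS and 13.97, 20.4 and 10.6 in pIpC. The groups did not overlap, but the mean over all libraries was 7.82, under the filter. In reads, PBS held 2 and pIpC 45, a ratio of reads scaled by the size factors of 22.6 with a counting interval of 5.90 to 192. An exact 2-sided permutation test gave p = 0.1, the smallest that 3 libraries against 3 allow. With no filter, over 27901 genes, limma gave a log2 change of 3.32 (SE 0.52, adjusted p = 0.00262).

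In the protein C pathway, in which thrombin bound to thrombomodulin activates protein C and the activated enzyme signals through a thrombin receptor, the genes tested did not share a direction. F2r, the thrombin receptor PAR1, rose from 5.61 ± 3.07 to 208 ± 22.7 (log2 change 5.07, adjusted p = 0.000112 by limma). Thbd fell as given above. F3, tissue factor, which is not among the steps just described, rose from 8.15 ± 3.82 to 60.5 ± 13.9 (2.81, adjusted p = 0.00215). F2r and F3 reached the filter only through pIpC, so both had to be higher once tested. Proc, protein C itself, had 1 read in the 6 libraries.

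Slamf1 encodes CD150, the SLAM receptor used to isolate long-term stem cells, which T cells, B cells and platelets also carry. It is ENSMUSG00000015316 on chromosome 1, from 171767127 to 171801184. Slamf1 had normalized counts of 0, 0 and 4.53 in PBS and 11.98, 45.0 and 18.4 in pIpC. The groups did not overlap, and pIpC replicate 2 stood above the other pIpC libraries. PBS held 4 reads and pIpC 75, a ratio of 18.8 with a counting interval of 7.06 to 70.9, and the fitted log2 change was 3.68 (SE 0.84, 95% interval 1.69 to 5.67, adjusted p = 0.0141 by limma). Without pIpC replicate 2, Slamf1 fell under the filter; a fit with neither the filter nor that library, chosen after seeing the data, gave 3.16 (SE 0.90, adjusted p = 0.0773). Its adjusted p ranged from 0.000269 to 0.0773 over the alternatives.

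Among its relatives in the SLAM family, Slamf6, Slamf7 and Slamf8 also rose. Slamf7 and Slamf8 reached the filter only through pIpC, so they had to be higher once tested. Slamf7 went from 7.19 ± 4.47 to 141 ± 31.9 (log2 change 4.24, adjusted p = 0.000493 by limma), Slamf6 from 13.4 ± 3.16 to 111 ± 37.7 (2.93, adjusted p = 0.000906) and Slamf8 from 0.626 ± 0.547 to 23.0 ± 15.9 (3.74, adjusted p = 0.00338). Cd244a, a SLAM receptor of natural killer and progenitor cells, fell from 786 ± 207 to 207 ± 28.3 (-1.89, adjusted p = 0.00104), and the adaptor Sh2d1b1 from 446 ± 39.6 to 152 ± 7.83 (-1.54, adjusted p = 0.000361). Cd48, Ly9, Cd84 and Slamf9 did not pass, with log2 differences of 0.10, 0.13, 0.11 and 0.79. The adaptor Sh2d1a was under the filter. Cd48, whose absence is combined with CD150 in stem cell sorting, had 1016 ± 288 normalized counts in PBS and 1062 ± 59.4 in pIpC. Without PBS replicate 3 Cd48 was called higher (0.32, adjusted p = 0.0187).

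Of the transcription factors, Mecom encodes the zinc finger proteins EVI1 and MDS1-EVI1, which sustain stem cells and are overexpressed in some myeloid leukemias. It is ENSMUSG00000027684 on chromosome 3, from 29951296 to 30548008. Normalized counts of 0.865, 0 and 0 were found in PBS and 41.9, 41.9 and 35.8 in pIpC. A single read in PBS replicate 1 stood against 120 reads in the 3 pIpC libraries, which lay close together. The ratio was 120 with a counting interval of 21.2 to 4799, and the fitted log2 change was 5.05 (SE 0.42, adjusted p = 0.000185 by limma). The fitted value depends on the number added before taking logs: it ranged from 2.28 to 7.55 over the alternatives that kept all libraries. Mecomos, on the other strand, shares 81 exon bases with Mecom, and no normalized count above 0 was found for it.

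Prdm16, the closest relative of Mecom and also needed by stem cells, had 0, 1.01 and 0 in PBS and 6.99, 73.6 and 10.6 in pIpC. It reached the filter only through pIpC, so it had to be higher once tested. Its groups did not overlap, and as for Slamf1 the highest value was in pIpC replicate 2. The log2 change was 3.92 (SE 0.89, adjusted p = 0.0143 by limma), and 2.93 (SE 0.54, adjusted p = 0.0205) with neither the filter nor that library.

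Hlf encodes a PAR bZIP factor whose activity marks stem cells and declines as they differentiate. It is ENSMUSG00000003949 on chromosome 11, from 90336536 to 90390895. Its normalized counts were 19.9, 21.3 and 12.4 in PBS and 381, 365 and 316 in pIpC. Every pIpC library stood far above every PBS library, and the spread within each group was small beside that gap. The level rose from 17.9 ± 4.74 to 354 ± 33.8 (SD, n = 3), a log2 change of 4.26 (SE 0.27, 95% interval 3.63 to 4.89, adjusted p = 5.97e-05 by limma). Without PBS replicate 3, which was the lowest, the log2 change was 4.04.

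The other PAR bZIP genes did not rise. Tef fell from 733 ± 108 to 286 ± 32.0 (log2 change -1.35, adjusted p = 0.00111 by limma), and Dbp had a log2 difference of -0.68 (SE 0.31, adjusted p = 0.133), which passed under quantile normalization (-0.93, adjusted p = 0.0527) and without PBS replicate 1 (-0.87, adjusted p = 0.0899). Nfil3, a repressor that binds the same DNA sites, rose from 357 ± 73.5 to 562 ± 101 (0.66, adjusted p = 0.0472), a call lost without PBS replicate 1 or 2 or without pIpC replicate 1 or 2 (adjusted p = 0.107, 0.127, 0.11 and 0.172 in that order).

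Zfp521 encodes a zinc finger cofactor of immature blood cells that restrains the B cell factor EBF1. It is ENSMUSG00000024420 on chromosome 18, from 13687013 to 13972787. The libraries gave 1.73, 2.02 and 1.13 normalized counts in PBS and 54.9, 48.0 and 42.5 in pIpC. In reads, 5 in PBS stood against 146 in pIpC, a ratio of 29.3 with a counting interval of 12.3 to 91.7, and no library of one group came near the other. The fitted log2 change was 4.24 (SE 0.34, adjusted p = 0.000158 by limma) and ranged from 2.33 to 4.88 over the alternatives that kept all libraries. Ebf1 rose from 3.55 ± 5.20 to 145 ± 72.5 (5.54, adjusted p = 0.0035), the largest rise among the family and pathway partners, and the 11 B cell markers, of which Ebf1 is one, were all called higher, 9 of them having reached the filter only through pIpC (summed 139 to 307 in PBS libraries and 1578 to 2982 in pIpC libraries). Ebf1 was among those 9, so it had to be higher once tested. The part of the B cell markers in the values of Zfp521 was not tested. Zfp423, the paralog of Zfp521, was under the filter.

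Eya1 encodes a phosphatase and coactivator that works with sine oculis homeobox factors and is a target of MLL fusions. It is ENSMUSG00000025932 on chromosome 1, from 14168954 to 14310235. Its normalized counts were 1478, 1583 and 957 in PBS and 79.8, 68.5 and 51.3 in pIpC. The groups lay far apart, with replicate 3 the lowest library of each. The level fell from 1339 ± 335 to 66.5 ± 14.4 (SD, n = 3), a log2 change of -4.30 (SE 0.26, 95% interval -4.92 to -3.68, adjusted p = 5.49e-05 by limma). Without PBS replicate 3 it was -4.53.

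Among the other genes of these families, Six5 rose from 8.55 ± 6.94 to 54.0 ± 15.8 (log2 change 2.80, adjusted p = 0.0153 by limma). Eya2 had no read in PBS and 28.9, 41.9 and 48.3 normalized counts in pIpC, at least 13.2-fold higher than the level of 3 reads per PBS library (adjusted p = 0.000117). Six5 and Eya2 reached the filter only through pIpC, so both had to be higher once tested. Eya3 did not pass (0.23, adjusted p = 0.272), and Eya4, Six2 and Six4 were under the filter.

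Msi2 encodes an RNA-binding protein that keeps stem cells and myeloid leukemia cells from differentiating by repressing or favouring translation of its target messages. It is ENSMUSG00000069769 on chromosome 11, from 88339382 to 88718513. The normalized counts of Msi2 were 243, 191 and 89.4 in PBS and 940, 864 and 826 in pIpC. All pIpC libraries lay above all PBS libraries, and PBS replicate 3 was at 41.2% of the mean of the other PBS libraries. The level rose 5.02-fold, from 175 ± 78.2 to 877 ± 58.2 (SD, n = 3), a log2 change of 2.44 (SE 0.36, 95% interval 1.59 to 3.29, adjusted p = 0.00216 by limma), and of 2.02 without that library. Msi1, its paralog, was under the filter. Numb, whose message Musashi proteins repress, rose from 772 ± 174 to 1903 ± 95.04 (1.33, adjusted p = 0.00191). Syncrip, a protein partner of MSI2, did not pass (-0.12, adjusted p = 0.595), but was called lower without PBS replicate 3 (-0.26, adjusted p = 0.014).

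**Figure D2:**
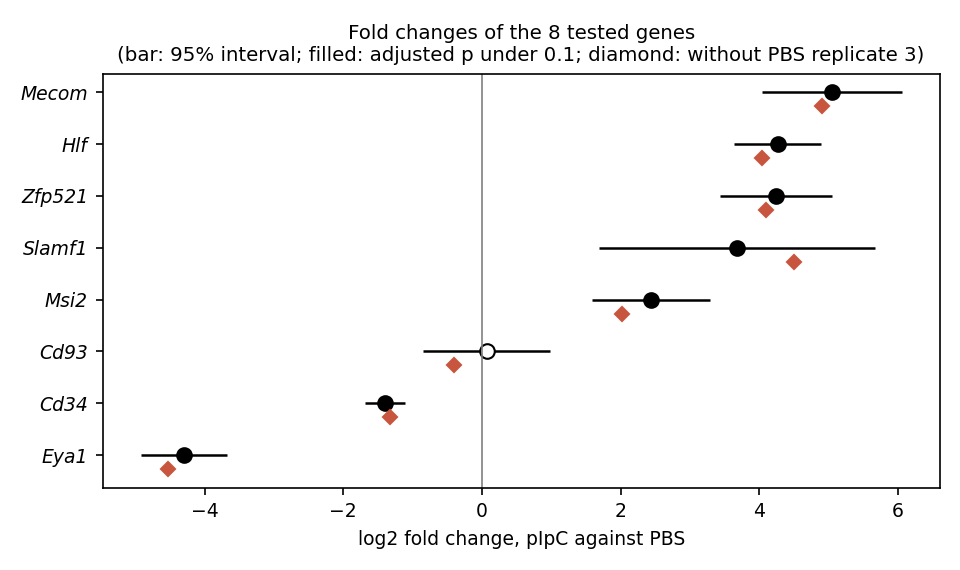
Log2 fold change, pIpC against PBS, of the 8 tested genes on the log2(normalized count + 1) scale, with 95% intervals from limma as bars, filled circles for an adjusted p under 0.1, and diamonds for the value without PBS replicate 3. The interval of Cd93 (-0.84 to 0.98) spans 0, those of Cd34 and Eya1 lie below 0, and the others lie above it.

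Levels can be compared between genes once divided by exon length, here as normalized counts per kilobase of annotated exon. In PBS the highest levels were those of Cd34 (728 ± 71.9, SD, n = 3) and Cd93 (667 ± 313), which did not differ beyond their spread. Eya1 followed at 172 ± 42.9, Msi2 at 16.8 ± 7.52 and Hlf at 2.67 ± 0.71. Procr, Slamf1, Zfp521 and Mecom were at 0.308 ± 0.269, 0.245 ± 0.425, 0.232 ± 0.065 and 0.0232 ± 0.0402, with too few reads for an order among them.

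In pIpC the order of levels per kilobase changed. Cd93 was highest (635 ± 35.1), followed by Cd34 (275 ± 10.9), Msi2 (84.3 ± 5.59) and Hlf (53.0 ± 5.06). Eya1 (8.52 ± 1.84), Procr (7.39 ± 2.45), Zfp521 (6.90 ± 0.88), Slamf1 (4.08 ± 2.84) and Mecom (3.21 ± 0.28) came last, and neighbours among these 5 did not differ beyond their spread. Mecom, with the largest rise on the log2 scale, was still under Hlf, Msi2, Cd34 and Cd93 in level per kilobase in the libraries labelled pIpC.

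**Figure D3:**
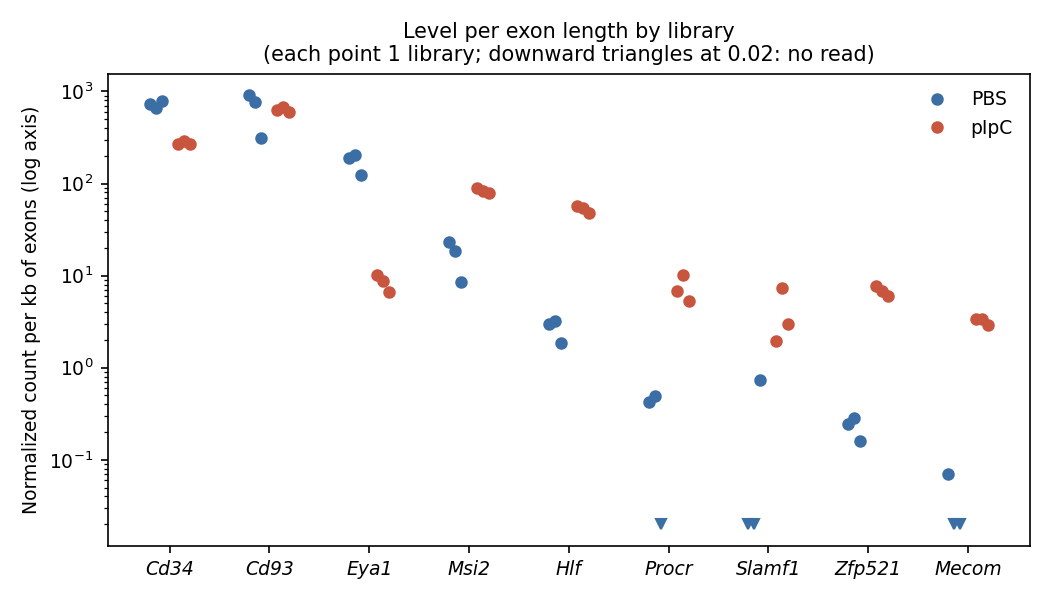
Normalized count per kilobase of annotated exon (log axis) of the 9 genes in PBS (blue) and pIpC (red), with 1 point per library and downward triangles for libraries without a read. Cd34 and Cd93 lead in both groups, while Msi2 and Hlf lie above Eya1 in pIpC and below it in PBS.

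The genes whose pattern over the 6 libraries was most like each of the 9 were found by the mean absolute difference of log2(normalized count + 1), each gene centred on its own mean. Hlf and Zfp521 were each other's neighbours, at 0.08, and shared Anks6 as the other (0.089 from Hlf and 0.049 from Zfp521). Cd34 was nearest to Btd (0.018) and Samsn1 (0.049), and Cd93 to Srr and Klf6 (0.036 each). Klf6 shared the low value of PBS replicate 3, with normalized counts of 5221, 4685 and 1840 in PBS and 3493, 3810 and 3525 in pIpC. Mecom was nearest to Cyp2j9 (0.089) and Mzb1 (0.11), Eya1 to Adam3 and Tln2 (0.19 each), Msi2 to Endou (0.11) and Tnks1bp1 (0.11), and Procr to Il10ra (0.13) and Ly75 (0.14). The neighbours of Slamf1, Tbxa2r and 1700027J07Rik, were farther away (0.43 and 0.45). Of these 18 pairs, between 5 and 17 were found again under the other settings and between 5 and 9 with a library left out, so most depend on the setting.

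Other stem cell genes, chosen from general knowledge, included both directions. Of 26, 23 were tested, 14 rose, 4 fell and 5 did not pass, with a median log2 change of 2.0 beside 0.015 over all genes tested, and 10 of those tested reached the filter only through pIpC. Tal1, a factor of early blood and erythroid cells, rose the most, from 3.30 ± 0.23 to 669 ± 1.98 (log2 change 7.29, adjusted p = 1.25e-05 by limma). Cdkn1c, a cell cycle inhibitor of quiescent stem cells, fell the most, from 75.2 ± 21.04 to 9.0 ± 7.93 (-3.20, adjusted p = 0.0064). Tal1 reached the filter only through pIpC and Cdkn1c only through PBS. The stem cell genes Cd34 and Cdkn1c thus fell in the same libraries in which Hlf, Mecom and Tal1 rose.

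Of 22 other MLL fusion target genes, 21 were tested, 13 fell, 5 rose and 3 did not pass, with a median of -1.24. Hoxa10 fell the most, from 1537 ± 135 to 17.8 ± 4.87 (log2 change -6.38, adjusted p = 1.76e-05 by limma), beside -4.30 for Eya1. Mef2c, a MADS-box factor, rose the most, from 5.53 ± 5.11 to 1086 ± 26.1 (7.72, adjusted p = 0.00013). Mef2c reached the filter only through pIpC and so had to be higher, while 2 genes of this list reached it only through PBS. With any 1 of the pIpC libraries left out the number that rose was 1, without PBS replicate 2 it was 3, and with quantile normalization it was 2. At an adjusted p under 0.05 it was also 2. It was 3 without the filter, with the replicate block, without the intensity trend or with a 1.5-fold change required. With edgeR it was 4, and without PBS replicate 3 it was 6. Of the 34 family and pathway partners, 25 were tested, 12 rose, 6 fell and 7 did not pass, with a median of 0.66. Of those tested, 10 reached the filter only through pIpC and 2 only through PBS. Across the 11 lists of this comparison, 8 genes stood in 2 lists.

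**Figure D4:**
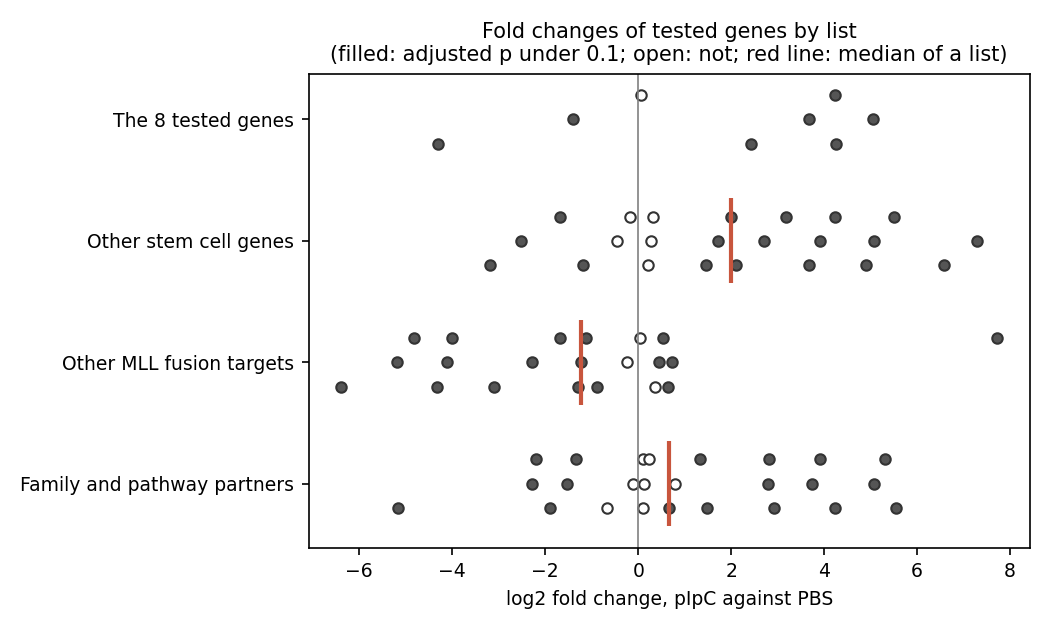
Log2 fold changes, pIpC against PBS, of the tested genes of the stem cell, MLL fusion target and partner lists beside the 8 tested genes, with 1 point per gene, filled for an adjusted p under 0.1, and a red line at the median of each of the 3 lists. The MLL fusion targets have a median of -1.24 and the stem cell genes have a median of 2.0.

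Markers of other cell types that use these genes moved with the groups. Of 12 endothelial markers, relevant to Cd34, Cd93, Procr and Mecom, 9 of 11 tested rose, the largest rise being Vwf (log2 change 4.21), and none was without a PBS read. Among the 11, 2 reached the filter only through pIpC. Pecam1, the marker with the most counts in PBS, had 1427, 2121 and 1184 normalized counts in PBS and 1084, 1125 and 952 in pIpC, all lower than in PBS, and did not pass (log2 difference -0.54, adjusted p = 0.104 by limma). No endothelial marker was called lower, but 1 was with quantile normalization, the replicate block, edgeR, DESeq2 or PBS replicate 3 left out. Their summed normalized counts were 1402 to 2406 in PBS and 2186 to 2500 in pIpC, ranges that overlap. Of 10 megakaryocyte markers, relevant to Mecom and Slamf1, all 9 tested rose, 5 of them reaching the filter only through pIpC (summed 1266 to 1658 and 3465 to 4269), and Ppbp, Gp1bb and Gp6 had no read in PBS. Ppbp rose the most, to at least 104-fold above the level of 3 reads per PBS library. Of 10 mast cell and basophil markers, 5 of 7 tested rose, led by Prss34 (10.76), and 1 fell, Gata2 (-1.18). Among the 7, 2 including Prss34 reached the filter only through pIpC and so had to be higher. The 10 markers summed to 4435 to 6789 and to 10960 to 13092, and Tpsb2 and Mcpt4 had no read in any library.

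Most markers tested in the other lists were called higher as well. All 10 erythroid markers rose, led by Hbb-bs (log2 change 8.52), with sums of 19.9 to 34.0 and of 3546 to 5027, and Slc4a1 and Rhag were among those with no read in PBS. Of the 10, 9 reached the filter only through pIpC and so had to be higher. All 11 B cell markers rose, led by Pax5 (7.41), and Ms4a1 had no read in PBS, but 9 of the 11 likewise reached the filter only through pIpC. The 7 T and NK cell markers tested of 10 were called higher, led by Ncr1 (4.79), with sums of 25.3 to 32.0 and of 273 to 295. All 7 reached the filter only through pIpC and so had to be higher, and with the minimum mean set at 50 the number called was 0. All 12 neutrophil maturation markers rose, led by Ly6g (8.23), with sums of 20469 to 46882 and of 2048250 to 2116120. Of 10 macrophage markers, 6 of 9 tested rose, led by Siglec1 (4.81), and 2 fell, led by Adgre1 (-3.80), with sums of 11791 to 16069 and of 7637 to 9165. Among the 9, 2 including Siglec1 reached the filter only through pIpC and so had to be higher. The part of these cell types in the values of the 9 genes was not tested.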

How the data were processed

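RNA of 6 libraries, 3 PBS and 3 pIpC, was poly(A)-selected. The authors deposited 1 table of normalized gene counts, a signal in which each value is a read count divided by a size factor of its library. All values above 0 (100%) were whole multiples of 1 read within 0.05, which allowed reads to be recovered. The sources differ on its making: the submitters' processing notes name HISAT2 2.2.1, SAMtools, featureCounts, Subread and edgeR on GRCm38, with unstranded libraries of GFP+ cells after lethal irradiation, and the study's methods name STAR and RSEM, with stranded libraries of c-Kit+ cells after sublethal irradiation. Which applies is not known. Symbols (for 55141 of 55487 genes) and positions came from GENCODE M21 on GRCm38, and promoters from RefSeq on GRCm38.p6.

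Values were tested as log2(normalized count + 1) by limma 3.58.1 (R 4.3.3), with a trend on intensity, over genes averaging 10 or more, without a replicate block, at a Benjamini-Hochberg adjusted p under 0.1. Fold changes on this scale understate those of low genes. Ratios of reads have exact intervals at 95% that cover counting error only, and the floor was 3 reads per library. The 9 genes and the gene lists, the latter from general knowledge, were chosen with earlier results of these data known. Named genes were the 9, Brd9, Ly6g, Adgre1, Xist, the largest rise and fall of each list, every tested partner, and the 2 genes nearest each of the 9. Results of 2 listed genes are not reported here. Pecam1, genes under the filter and genes singled out as without a read were named after their values were seen.

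Results were recomputed after quantile normalization or median centring, with a pseudocount of 0.1 or 10, without the filter or with a minimum of 50, with a replicate block, without the trend, by edgeR 4.0.16 and DESeq2 1.42.0 on recovered reads, at an adjusted p under 0.05, with a 1.5-fold change required, and with each library left out. The scripts were tested on simulated data. Deviations from the group mean of libraries sharing a number correlated at -0.117, 0.143 and 0.041, so numbers were not taken to pair the libraries.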

Additional observations from a re-analysis of the deposited data

How the results depend on the processing

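Of 133 recalculated fold changes of the 8 tested genes, 129 kept their direction and their side of the threshold. The other 4 were all of Cd93, at -0.064 with quantile normalization, -0.086 with edgeR and -0.074 with DESeq2, none called; leaving out a library gave -0.40 (without PBS replicate 3, called) to 0.36. The number called among the 9 was 7, and 4 at a mean of at least 50, where fewer genes are tested; leaving out a library gave 6 to 8. With the replicate block, although the numbers do not pair the libraries, 7 were called and 6095 genes in all, against 6808; other settings gave 5231 to 7910 genes and leaving out a library 4551 (pIpC replicate 2) to 9829 (PBS replicate 3). Genes lower numbered 1880 and 1917 without pIpC replicates 2 and 3, against 3058. Quantile normalization moved the median of all genes to -0.12 and the split from 3750 higher and 3058 lower to 3244 and 4078. It put Cd48 at -0.0042 and Cd84 at -0.036. Leaving out a library gave -0.070 to 0.32 for Cd48, -0.012 to 0.23 for Cd84 and -0.023 to 0.25 for Ly9. Brd9 was not called under any setting run (adjusted p = 0.201 to 0.729 in limma, edgeR or DESeq2). The cause of these changes was not tested. With 0 to 4 reads per PBS library, the sizes of the changes of Mecom, Slamf1, Zfp521 and Procr are limited by counting.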
